A study of Mus musculus with 10 samples.

Results

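The contractile and excitation genes of smooth muscle are 38 genes, chosen by name, that encode the actin and myosin filaments of the visceral muscle cell, the structures that anchor them, and the channels, calcium stores, receptors and nuclear factors that set them to work. All 38 had a row among the 32132 genes of the deposited expression table, and all 38 were among the 19615 genes that passed the low-count filter and were tested. RNA was sequenced from whole colons of adult wild-type C57BL/6 mice in 10 libraries. In 5 of them, the drinking water held 3% dextran sulfate sodium (DSS), which injures the colon epithelium, for 7 days. Each mouse was also injected daily into a vein with 4-HDHA, a hydroxylated form of docosahexaenoic acid. The other 5 libraries came from mice on the same water that received phosphate-buffered saline (PBS) alone. The labels name PBS as the diluent of 4-HDHA for a single treated library. The injected volume was 200 ul per 20 g body weight in both groups, the strength of 4-HDHA is written as 5 um, and no library came from a mouse without DSS. The comparison asks what 4-HDHA does to gene expression in the inflamed colon. The age beyond adult is not given, and neither is whether each library was a separate mouse, so p-values measure the spread between these libraries.

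Smooth muscle of the gut wall contracts when calcium enters the cell or leaves its internal store, binds calmodulin and switches on the kinase that phosphorylates the myosin regulatory light chain. Myosin then pulls on actin filaments that are tied to dense bodies in the cytoplasm and to adhesion plaques at the membrane, and a phosphatase ends the cycle. Most of these genes are switched on together by serum response factor with its muscle coactivator myocardin, and acetylcholine from enteric nerves drives contraction through muscarinic receptors.

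The libraries held between 50915365 and 66470519 counts, and levels below are CPM, counts as a share of the library scaled for library composition unless FPKM, which allows for gene length, is named. The colons of each group are numbered as the labels number them, and 4-HDHA colon 5 stood apart. The members together took 1.37, 1.32, 1.07, 1.22 and 0.303% of the counts in 4-HDHA colons 1 to 5, against 0.428, 0.988, 0.318, 0.492 and 0.836% in PBS colons 1 to 5. By that share 4-HDHA colon 5 was below all PBS colons, while the other 4 were above all of them. By the summed CPM of the members, 4-HDHA colon 5 (3128) was above PBS colon 3 (2869) and below the other PBS colons. It was the lowest of its group for 37 of the 38 members, with Srf as the exception, and was below the PBS median for 37, with Chrm3 as the exception. It also held B cell transcripts at levels no other library reached: Cd79a, of the B cell receptor, was at 91.9 CPM there, against 1.86 to 4.31 CPM in the other 4-HDHA colons and 0.765 to 5.72 CPM in PBS colons. Its treatment label, unlike those of the other 4 of its group, states that 4-HDHA was diluted in PBS. The part of this B cell content in the low muscle transcripts was not tested. Results for the members are therefore given with and without this colon. It was singled out with these values known, so counts without it are descriptions set beside those of all 10 libraries.

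In 4-HDHA colons, 37 of the 38 genes had a higher fitted level than in PBS colons, and the exception was Srf. A positive fold change was seen in 51% of all genes tested. The median log2 fold change of the members was 0.83, against 0.01 over all genes tested, with a range from -0.04 (Srf) to 1.75 (Chrm3). None of these differences passed: edgeR's quasi-likelihood test with Benjamini-Hochberg adjustment over all genes called 0 of 38 members, and 0% of all genes as higher. The smallest adjusted p of a member was 0.291 (edgeR, n = 5 each). At an unadjusted edgeR p under 0.05, 14 members were higher and 0 lower, where 7.39% of all genes were higher. That count fell to 2 without 4-HDHA colon 4, 3 without PBS colon 4 and 4 without PBS colon 1. It was 5 without PBS colon 3 or 4-HDHA colon 1, 6 without 4-HDHA colon 2 and 20 without PBS colon 2. The share of all genes at that p was not computed for these comparisons, so whether all genes moved alike is not shown. DESeq2 called 1 member, Chrm3 (adjusted p = 0.0178), where it called 0.973% of all genes as higher, and voom with quality weights called 0. In no member did every 4-HDHA colon lie above every PBS colon, which happened in 1.16% of all genes. In whole-tissue RNA, a difference in the number of muscle cells and a difference in RNA per muscle cell cannot be told apart.

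Without 4-HDHA colon 5, the median log2 fold change of the members was 1.08, against 0.00 over all genes tested, and 37 of 38 were positive, where 50.4% of all genes were. In that comparison of 4 against 5 colons edgeR's adjusted test again called 0 of 38 members and 0% of genes as higher, with a smallest adjusted p of 0.1003. At an unadjusted edgeR p under 0.05, 35 members were higher, where 10.7% of all genes were. DESeq2 called 19 members as higher, where it called 4.3% of all genes, and voom with quality weights called 13, where it called 1.41%. All 13 were among the 19. In 21 members each of the 4 remaining 4-HDHA colons lay above each of the 5 PBS colons, where 5.69% of all genes did so. The spread among the PBS colons was also wide. PBS colons 2 and 5 were the highest pair of their group in 34 members, and PBS colon 3 was the lowest of all 10 libraries in 19. The heat map and the plot of fold changes show both patterns.

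**Figure D1:**
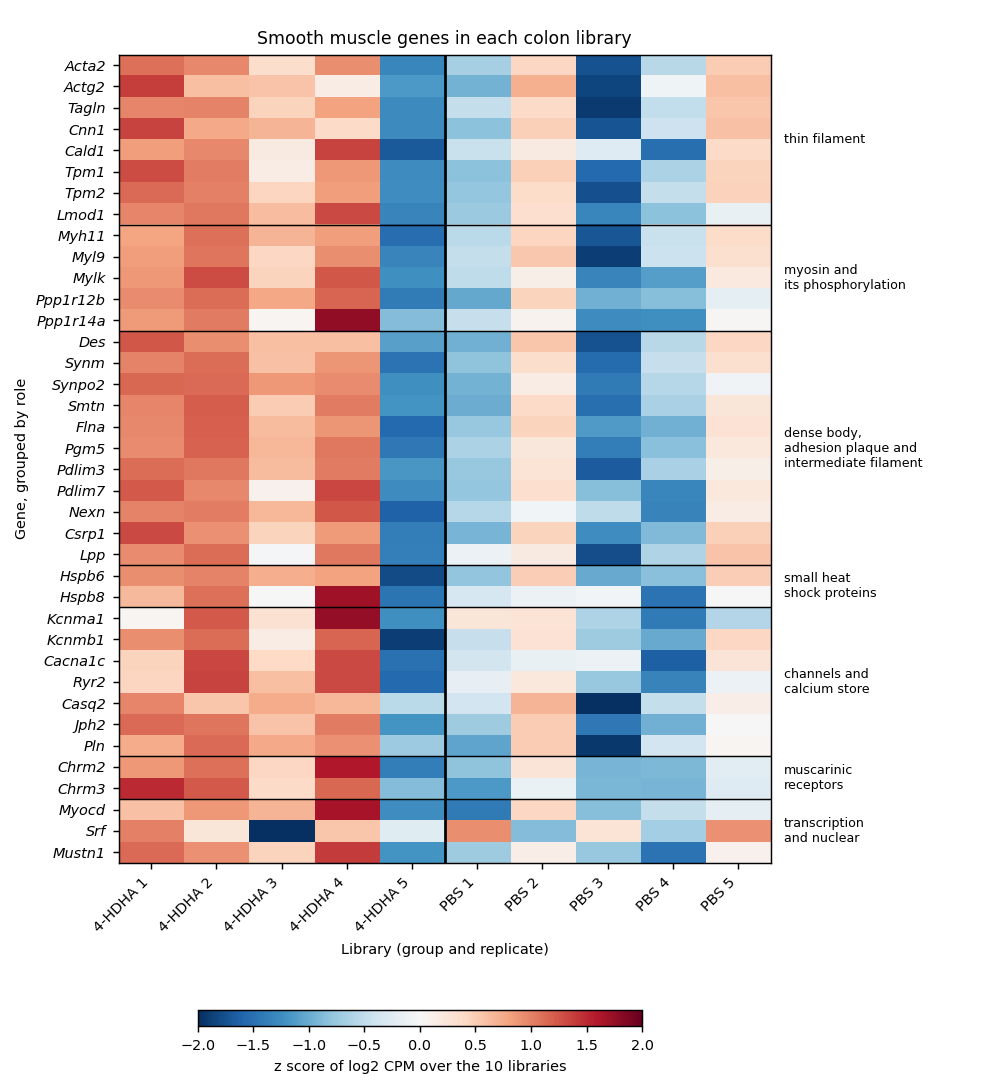
Level of each of the 38 genes in each library as a z score of its log2 CPM over the 10 libraries, with genes in rows by role, 4-HDHA colons left of the line and PBS colons right of it. Colons 1 to 4 of the 4-HDHA group all exceed the highest PBS colon in 21 rows, as in 5.69% of all genes. With colon 5 included this holds in 0 rows, against 1.16% of all genes. Colon 5 is the lowest of its group in 37 rows, and PBS colons 2 and 5 lie above the other PBS colons in 34 rows.

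**Figure D2:**
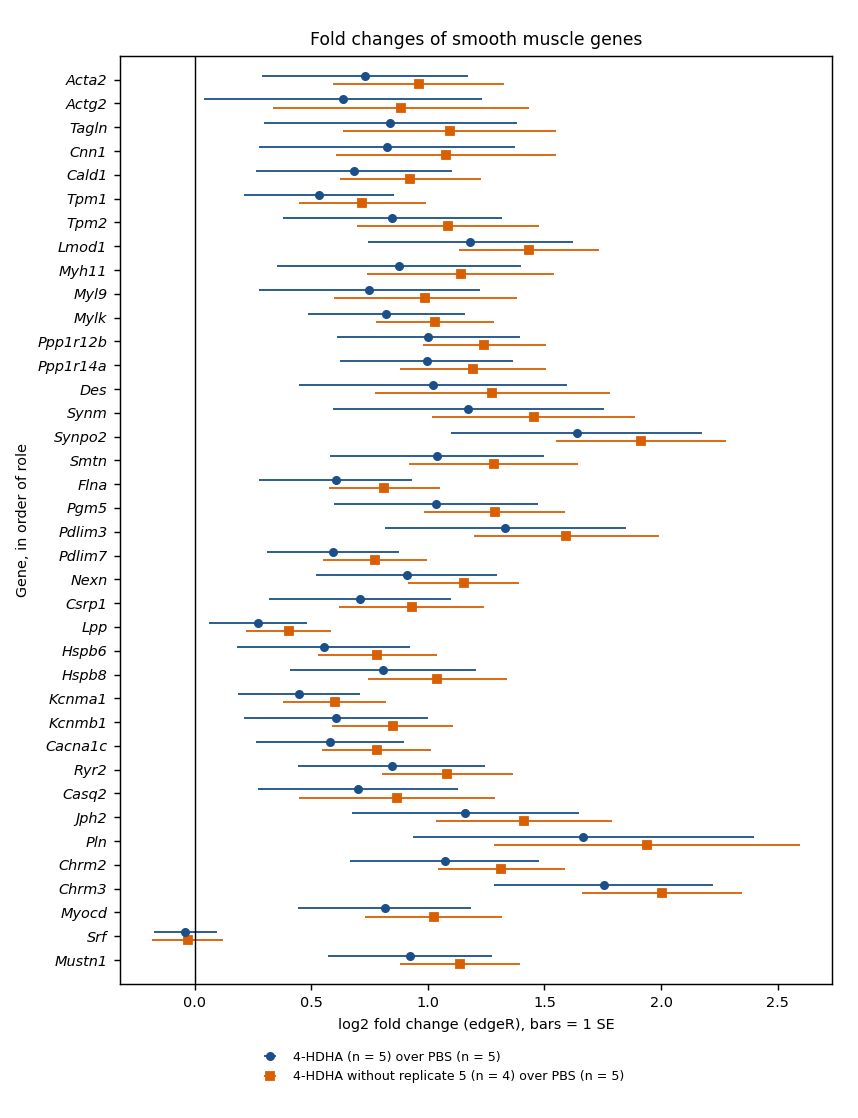
Log2 fold change of 4-HDHA over PBS for each gene from edgeR, with bars of 1 SE, over all libraries (circles, 5 against 5) and without 4-HDHA colon 5 (squares, 4 against 5). The values run from -0.04 to 1.75 over all libraries, and the largest without colon 5 is 2.00.

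The thin filament group holds the muscle actins and the proteins that bind along them. All 8 had positive fold changes with a median of 0.78 on the log2 scale. Of these, 1, Lmod1, had an unadjusted edgeR p under 0.05, where 7.39% of all genes were higher. Lmod1 had 80.2, 84.7, 62.3, 101.4 and 16.4 CPM in 4-HDHA colons 1 to 5, against 24.2, 51.4, 16.6, 23.2 and 36.6 CPM in PBS colons 1 to 5. Lmod1, leiomodin, starts new actin filaments in smooth muscle and lies at chr1:135324807-135368065 on the plus strand of mm10. Its 4-HDHA colons 1 to 4 were above every PBS colon, and colon 5 was below every PBS colon (log2 fold change 1.18 ± 0.44 SE, edgeR adjusted p = 0.309, n = 5 each; 1.43 ± 0.30 without 4-HDHA colon 5, DESeq2 adjusted p = 0.00169). Acta2 had 1543, 1415, 968, 1394 and 348 CPM in 4-HDHA colons 1 to 5, against 519, 1013, 264, 554 and 1065 CPM in PBS colons 1 to 5. Acta2, smooth muscle alpha actin, was the most abundant member per length at 460.2 ± 193 FPKM in 4-HDHA colons and 275 ± 136 FPKM in PBS colons (SD, n = 5 each). Its groups overlapped, since PBS colons 2 and 5 exceeded 4-HDHA colons 3 and 5 (log2 fold change 0.73 ± 0.44 SE, edgeR adjusted p = 0.425, n = 5 each; 0.96 ± 0.37 without 4-HDHA colon 5). Actg2 had 1146, 604, 589, 421 and 147 CPM in 4-HDHA colons 1 to 5, against 173, 661, 83.9, 348 and 604 CPM in PBS colons 1 to 5. Actg2, the gamma actin typical of the gut, had wide overlap (log2 fold change 0.64 ± 0.60 SE, edgeR adjusted p = 0.601, n = 5 each; 0.88 ± 0.55 without 4-HDHA colon 5), and was not called without colon 5 by any of the 3 methods. The ratio of Actg2 to Acta2 in FPKM was 1.05, 0.602, 0.858, 0.426 and 0.594 in 4-HDHA colons 1 to 5, against 0.471, 0.920, 0.449, 0.886 and 0.800 in PBS colons 1 to 5, and the groups overlapped.

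Tagln had 1327, 1341, 878, 1158 and 224 CPM in 4-HDHA colons 1 to 5, against 419.9, 832, 135, 416 and 951 CPM in PBS colons 1 to 5. Tagln, transgelin or SM22, bundles actin filaments, and PBS colon 5 exceeded 4-HDHA colon 3 (log2 fold change 0.84 ± 0.54 SE, edgeR adjusted p = 0.449, n = 5 each; 1.09 ± 0.46 without 4-HDHA colon 5). An annotated gene on the opposite strand, Gm48529, overlaps 62.4% of its exon bases and had between 8.13 and 18.9% of its counts. The libraries mark strand, but whether counting used it is not stated in the sources used here. The other 4 members are calponin (Cnn1) and caldesmon (Cald1), which restrain actin-activated myosin, and the tropomyosins Tpm1 and Tpm2, which line the filament. They had log2 fold changes from 0.53 (Tpm1) to 0.85 (Tpm2), with edgeR adjusted p from 0.395 to 0.459, and from 0.72 (Tpm1) to 1.09 (Tpm2) without colon 5. Without colon 5, 7 of the 8 thin filament genes had an unadjusted edgeR p under 0.05, where 10.7% of all genes were higher. Actg2 was the exception. DESeq2 called 1 of the 8, Lmod1, where it called 4.3% of all genes as higher.

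The myosin group had 5 of 5 positive fold changes, with a median of 0.88 on the log2 scale. At an unadjusted edgeR p under 0.05, 3 were higher, where 7.39% of all genes were. Myh11 had 1363, 1719, 1249, 1404 and 232 CPM in 4-HDHA colons 1 to 5, against 493, 1036, 200.4, 531 and 989 CPM in PBS colons 1 to 5. Myh11, the smooth muscle myosin heavy chain, lies at chr16:14194535-14291372 on the minus strand of mm10. Its 4-HDHA colons 1 to 4 exceeded every PBS colon, and colon 5 was above PBS colon 3 alone (log2 fold change 0.88 ± 0.52 SE, edgeR adjusted p = 0.421, n = 5 each; 1.14 ± 0.40 without 4-HDHA colon 5). Mylk had 512, 638, 413, 619 and 179 CPM in 4-HDHA colons 1 to 5, against 256, 353, 171, 190.5 and 364 CPM in PBS colons 1 to 5. Mylk, the calmodulin-dependent kinase of the light chain, had the same arrangement (log2 fold change 0.82 ± 0.34 SE, edgeR adjusted p = 0.315, n = 5 each; 1.03 ± 0.25 without 4-HDHA colon 5, DESeq2 adjusted p = 0.0120). Both regulators of the light chain phosphatase were among the 10 members with the smallest p. Ppp1r12b had 169, 186, 151, 193 and 40.7 CPM in 4-HDHA colons 1 to 5, against 50.9, 125, 52.8, 56.5 and 84.7 CPM in PBS colons 1 to 5. Ppp1r12b, a subunit that brings the phosphatase to myosin, was lowest of all 10 libraries in 4-HDHA colon 5 (log2 fold change 1.00 ± 0.39 SE, edgeR adjusted p = 0.314, n = 5 each; 1.24 ± 0.26 without 4-HDHA colon 5). Ppp1r14a had 18.4, 20.3, 11.8, 30.5 and 7.18 CPM in 4-HDHA colons 1 to 5, against 8.96, 11.9, 5.80, 5.87 and 11.6 CPM in PBS colons 1 to 5. Ppp1r14a, CPI-17, blocks the phosphatase once protein kinase C has phosphorylated it. PBS colon 2 was slightly above 4-HDHA colon 3, so its groups overlapped even without colon 5 (log2 fold change 1.00 ± 0.37 SE, edgeR adjusted p = 0.309, n = 5 each; 1.19 ± 0.31 without 4-HDHA colon 5). Myl9, the regulatory light chain itself, averaged 451 ± 202 CPM in 4-HDHA colons and 268 ± 141 CPM in PBS colons (SD, n = 5 each; edgeR adjusted p = 0.443), with a log2 fold change of 0.75, and 0.99 without colon 5. Without colon 5, DESeq2 called Mylk, Ppp1r12b and Ppp1r14a, which set the phosphorylation of the light chain, and did not call Myh11 (adjusted p = 0.0686) or Myl9 (adjusted p = 0.123).

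The dense body, adhesion plaque and intermediate filament group was the largest, with 11 genes. All 11 were positive, by a median of 1.02 on the log2 scale. Of these, 5 had an unadjusted edgeR p under 0.05, where 7.39% of all genes were higher. Synpo2 had 232, 228, 179, 194 and 26.6 CPM in 4-HDHA colons 1 to 5, against 34.7, 93.7, 22.4, 48.4 and 77.1 CPM in PBS colons 1 to 5. Synpo2, synaptopodin 2 or myopodin, bundles actin at dense bodies and lies at chr3:123076519-123236096 on the minus strand of mm10. Its lowest value among 4-HDHA colons 1 to 4 was above the highest PBS value, and colon 5 lay above PBS colon 3 alone (log2 fold change 1.64 ± 0.54 SE, edgeR adjusted p = 0.303, n = 5 each; 1.91 ± 0.37 without 4-HDHA colon 5, DESeq2 adjusted p = 0.000155). Pdlim3 had 149, 140.1, 99.1, 138 and 22.3 CPM in 4-HDHA colons 1 to 5, against 31.3, 73.0, 14.6, 34.1 and 64.5 CPM in PBS colons 1 to 5. Pdlim3, a PDZ and LIM domain adaptor that binds alpha-actinin, showed the same order (log2 fold change 1.33 ± 0.52 SE, edgeR adjusted p = 0.311, n = 5 each; 1.59 ± 0.40 without 4-HDHA colon 5, DESeq2 adjusted p = 0.00560). Des had 1066, 813, 615, 616 and 149.5 CPM in 4-HDHA colons 1 to 5, against 165, 594, 85.8, 233 and 526 CPM in PBS colons 1 to 5. Des, desmin, forms the intermediate filaments of muscle, and its 4-HDHA colons 1 to 4 were above the PBS colons, colon 3 by a narrow margin over PBS colon 2 (log2 fold change 1.02 ± 0.58 SE, edgeR adjusted p = 0.399, n = 5 each; 1.28 ± 0.50 without 4-HDHA colon 5).

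The remaining 8 of this group had log2 fold changes from 0.27 to 1.17, and the largest was that of Synm, synemin, a partner of desmin (log2 fold change 1.17 ± 0.58 SE, edgeR adjusted p = 0.358, n = 5 each; 1.45 ± 0.43 without 4-HDHA colon 5, DESeq2 adjusted p = 0.0243). Smtn, smoothelin, an actin-binding protein of contractile smooth muscle, and Pgm5, aciculin, an adhesion protein of muscle, each had a log2 fold change of 1.04 with an unadjusted edgeR p under 0.05 (adjusted p = 0.331 and 0.324), and without colon 5 the values were 1.28 and 1.29. Smtn shares 16.3% of its exon bases with Gm11946 on the opposite strand, which had between 9.53 and 26.6% of the Smtn counts. Nexn, nexilin, which binds actin at adhesion sites, had a log2 fold change of 0.91 (1.15 without colon 5) and shares 3.04% of its 150-base stretches with another gene, Gm43185. Flna, filamin A, which crosslinks actin and ties it to integrins, averaged 989 ± 361 CPM in 4-HDHA colons and 649.9 ± 220.3 CPM in PBS colons (SD, n = 5 each; edgeR adjusted p = 0.387), with a log2 fold change of 0.61, and 0.81 without colon 5. The adaptors Pdlim7 and Csrp1, both LIM proteins bound to the actin cytoskeleton, had log2 fold changes of 0.59 and 0.71 (0.77 and 0.93 without colon 5). Lpp, a LIM protein of focal adhesions that many tissues express, had the smallest log2 fold change of any member except Srf, at 0.27 ± 0.21 (SE, n = 5 each; edgeR adjusted p = 0.521) and 0.40 ± 0.18 without colon 5. Without colon 5 all 11 had an unadjusted edgeR p under 0.05, where 10.7% of all genes were higher. DESeq2 called 7, where it called 4.3% of all genes as higher. These 7 were Synm, Synpo2, Smtn, Flna, Pgm5, Pdlim3 and Nexn. The small heat shock proteins Hspb6, which cyclic nucleotide kinases phosphorylate during relaxation, and Hspb8, a chaperone that works with Bag3, had log2 fold changes of 0.55 and 0.81 (0.78 and 1.04 without colon 5). DESeq2 called Hspb8 without colon 5 (adjusted p = 0.0320), although 4-HDHA colon 3 (32.6 CPM) was then still below PBS colon 5 (32.9 CPM).

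The channels and the calcium store had 7 of 7 positive fold changes, with a median of 0.70 on the log2 scale. At an unadjusted edgeR p under 0.05, 2 were higher, Jph2 and Pln, where 7.39% of all genes were. Cacna1c had 34.8, 51.4, 34.1, 50.9 and 14.9 CPM in 4-HDHA colons 1 to 5, against 24.3, 26.9, 27.3, 14.02 and 32.1 CPM in PBS colons 1 to 5. Cacna1c encodes the pore of the L-type calcium channel that admits calcium on depolarization, and its overlap came from colon 5 (log2 fold change 0.58 ± 0.32 SE, edgeR adjusted p = 0.389, n = 5 each; 0.78 ± 0.23 without 4-HDHA colon 5). Kcnma1 had 15.7, 23.1, 17.03, 27.5 and 10.3 CPM in 4-HDHA colons 1 to 5, against 16.7, 16.9, 12.6, 9.69 and 12.7 CPM in PBS colons 1 to 5. Kcnma1, the pore of the large-conductance potassium channel that repolarizes the cell, had 4-HDHA colon 1 below PBS colons 1 and 2 and so overlapped with or without colon 5 (log2 fold change 0.45 ± 0.26 SE, edgeR adjusted p = 0.411, n = 5 each; 0.60 ± 0.22 without 4-HDHA colon 5). Its smooth muscle partner Kcnmb1, the beta subunit that raises calcium sensitivity, had a log2 fold change of 0.61 (0.85 without colon 5). Of the store proteins, Jph2 had 48.6, 46.4, 32.0, 45.4 and 8.56 CPM in 4-HDHA colons 1 to 5, against 12.3, 30.5, 7.15, 10.2 and 20.8 CPM in PBS colons 1 to 5. Jph2, junctophilin 2, holds the store against the surface membrane, and its 4-HDHA colons 1 to 4 exceeded every PBS colon (log2 fold change 1.16 ± 0.49 SE, edgeR adjusted p = 0.319, n = 5 each; 1.41 ± 0.38 without 4-HDHA colon 5, DESeq2 adjusted p = 0.0122). Pln had 6.04, 9.58, 6.15, 7.40 and 1.01 CPM in 4-HDHA colons 1 to 5, against 0.674, 4.49, 0.233, 1.54 and 2.54 CPM in PBS colons 1 to 5. Pln, phospholamban, restrains the pump that refills the store. It had the largest log2 fold change of the 7 and the widest error (log2 fold change 1.67 ± 0.73 SE, edgeR adjusted p = 0.329, n = 5 each; 1.94 ± 0.66 without 4-HDHA colon 5, DESeq2 adjusted p = 0.0343). Pln is low, PBS colons 1 and 3 being under 1 CPM, and Gm47644 on the opposite strand overlaps 59.6% of its exon bases with between 0 and 20 counts per library. Ryr2, a release channel of the store, and Casq2, which buffers calcium inside it, had log2 fold changes of 0.85 and 0.70 (1.08 and 0.87 without colon 5). Ryr2 was the lowest member per length at 0.301 ± 0.146 FPKM in 4-HDHA colons and 0.166 ± 0.0533 FPKM in PBS colons (SD, n = 5 each). Casq2 was 1 of 3 members, with Actg2 and Srf, that kept an unadjusted edgeR p above 0.05 without colon 5.

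Both muscarinic receptors had an unadjusted edgeR p under 0.05, where 7.39% of all genes were higher. Chrm3 had 5.45, 4.42, 2.23, 4.14 and 0.823 CPM in 4-HDHA colons 1 to 5, against 0.653, 1.49, 0.791, 0.780 and 1.33 CPM in PBS colons 1 to 5. Chrm3, which through Gq releases stored calcium and carries most of the direct contraction to acetylcholine, had the smallest p and the largest fold change of all members. It lies at chr13:9875486-10360844 on the minus strand of mm10. Colons 1 to 4 of the 4-HDHA group were above every PBS colon, and colon 5 was below PBS colons 2 and 5 and above the other 3 (log2 fold change 1.75 ± 0.47 SE, edgeR adjusted p = 0.291, n = 5 each; 2.00 ± 0.34 without 4-HDHA colon 5, edgeR adjusted p = 0.1003 and DESeq2 adjusted p = 2.01e-05). Chrm2 had 25.4, 29.2, 19.2, 39.6 and 6.42 CPM in 4-HDHA colons 1 to 5, against 9.13, 17.5, 8.51, 8.66 and 13.1 CPM in PBS colons 1 to 5. Chrm2, the Gi-coupled and more abundant receptor, opposes relaxation by lowering cyclic AMP, and its 4-HDHA colons 1 to 4 were above every PBS colon while colon 5 was the lowest of all 10 libraries (log2 fold change 1.07 ± 0.41 SE, edgeR adjusted p = 0.311, n = 5 each; 1.32 ± 0.27 without 4-HDHA colon 5, DESeq2 adjusted p = 0.00167). Per length, Chrm2 stood at 3.54 ± 1.82 FPKM in 4-HDHA colons and 1.69 ± 0.623 FPKM in PBS colons, and Chrm3 at 0.481 ± 0.251 FPKM in 4-HDHA colons and 0.142 ± 0.0554 FPKM in PBS colons (SD, n = 5 each). Nerves, epithelium and other cells of the colon also carry muscarinic receptors, and which cells the reads came from was not measured.

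Of the 3 nuclear members, Myocd and Mustn1 had positive fold changes and Srf did not. Myocd had 3.92, 4.49, 4.09, 6.71 and 1.54 CPM in 4-HDHA colons 1 to 5, against 1.41, 3.58, 1.88, 2.27 and 2.64 CPM in PBS colons 1 to 5. Myocd, myocardin, is the coactivator that turns serum response factor toward muscle genes, and its overlap came from 4-HDHA colon 5 (log2 fold change 0.82 ± 0.37 SE, edgeR adjusted p = 0.338, n = 5 each; 1.03 ± 0.29 without 4-HDHA colon 5, DESeq2 adjusted p = 0.0254). Srf had 50.3, 44.9, 31.8, 47.0 and 41.9 CPM in 4-HDHA colons 1 to 5, against 49.7, 38.2, 45.2, 39.3 and 49.6 CPM in PBS colons 1 to 5. Srf, serum response factor, the DNA-binding partner expressed in most cells, lies at chr17:46548329-46556175 on the minus strand of mm10. All PBS values lay within the range of the 4-HDHA values, and the lowest value was that of 4-HDHA colon 3 (log2 fold change -0.04 ± 0.14 SE, edgeR adjusted p = 0.903, n = 5 each). Its log2 fold change was -0.03 without colon 5 and turned slightly positive when 4-HDHA colon 3 (0.05), PBS colon 1 (0.00) or PBS colon 5 (0.00) was left out. Mustn1 had 66.6, 59.1, 45.8, 76.9 and 18.9 CPM in 4-HDHA colons 1 to 5, against 24.6, 38.7, 24.0, 16.2 and 37.7 CPM in PBS colons 1 to 5. Mustn1, a small nuclear protein of muscle and skeleton, had 4-HDHA colons 1 to 4 above every PBS colon (log2 fold change 0.92 ± 0.35 SE, edgeR adjusted p = 0.311, n = 5 each; 1.14 ± 0.26 without 4-HDHA colon 5, DESeq2 adjusted p = 0.00567).

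**Figure D3:**
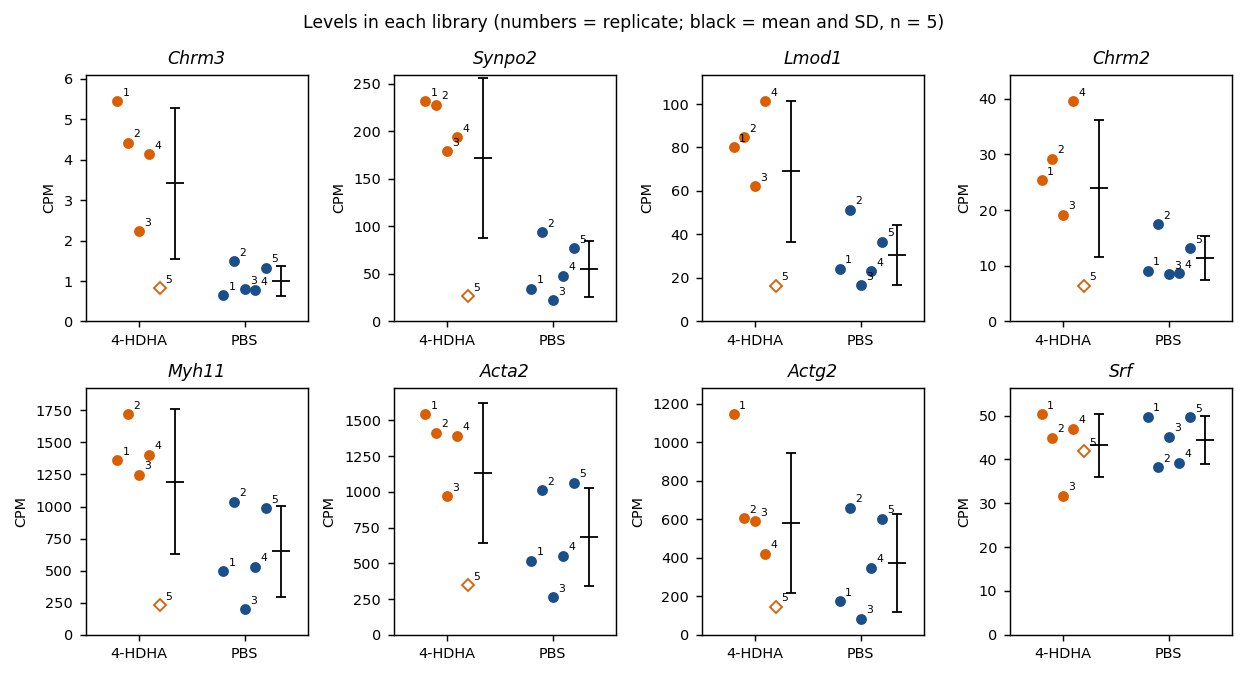
CPM of 8 members in each library, with 4-HDHA left of PBS, replicate numbers beside the points, 4-HDHA colon 5 as an open diamond, and the mean and SD of the 5 colons of each group in black. Chrm3, Synpo2, Lmod1, Chrm2 and Myh11 separate once the diamond is set aside, Acta2 and Actg2 do not, and Srf lies between 31.8 and 50.3 CPM in both groups together.

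Promoters are shown for 4 members because most of this set is reached by serum response factor through a 10-base element, the CArG box, and because Srf itself, which binds it, had the smallest fold change of the set. Each sequence is the RefSeq window of 250 bases before to 50 bases after the start on GRCm38.p6, written along the gene's strand. Capitals mark a CArG box, exact or with 1 letter off. The windows are chr19:34255324-34255623 (minus strand) for Acta2, chr1:135324563-135324862 (plus) for Lmod1, chr2:156775214-156775513 (plus) for Myl9 and chr17:46556113-46556412 (minus) for Srf.
Acta2: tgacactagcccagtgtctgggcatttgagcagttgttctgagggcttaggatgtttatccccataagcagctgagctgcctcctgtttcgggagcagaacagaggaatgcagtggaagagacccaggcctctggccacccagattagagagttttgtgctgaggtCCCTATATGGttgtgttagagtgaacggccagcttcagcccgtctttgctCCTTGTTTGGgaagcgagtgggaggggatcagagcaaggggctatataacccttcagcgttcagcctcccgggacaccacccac
Lmod1: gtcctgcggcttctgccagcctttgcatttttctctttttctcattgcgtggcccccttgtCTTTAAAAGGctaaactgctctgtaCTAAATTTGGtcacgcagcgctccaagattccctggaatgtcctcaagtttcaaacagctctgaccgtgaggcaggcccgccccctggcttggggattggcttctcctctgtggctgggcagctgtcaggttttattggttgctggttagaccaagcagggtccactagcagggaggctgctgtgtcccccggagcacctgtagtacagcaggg
Myl9: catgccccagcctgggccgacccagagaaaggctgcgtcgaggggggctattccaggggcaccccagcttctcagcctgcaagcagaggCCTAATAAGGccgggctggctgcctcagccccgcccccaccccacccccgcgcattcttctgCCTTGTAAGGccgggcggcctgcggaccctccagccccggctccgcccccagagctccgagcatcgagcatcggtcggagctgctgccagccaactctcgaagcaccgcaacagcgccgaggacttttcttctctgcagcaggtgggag
Srf: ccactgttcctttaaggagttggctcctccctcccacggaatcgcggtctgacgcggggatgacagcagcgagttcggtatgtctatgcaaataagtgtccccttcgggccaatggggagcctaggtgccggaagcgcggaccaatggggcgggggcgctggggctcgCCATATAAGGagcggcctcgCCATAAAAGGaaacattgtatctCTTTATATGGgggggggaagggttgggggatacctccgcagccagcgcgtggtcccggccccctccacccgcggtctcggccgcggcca

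Both boxes of Acta2 were 1 letter off and lay 84 to 75 and 34 to 25 bases upstream of the start. Those of Lmod1, at 189 to 180 and 164 to 155 bases upstream, were also 1 letter off. Myl9 had an exact box at 161 to 152 bases and another, 1 letter off, at 99 to 90. Srf, the member whose level did not follow the rest, had the densest cluster, with exact boxes at 82 to 73 and 62 to 53 bases and another, 1 letter off, at 39 to 30. The element reads as the same pattern on both strands, so each match was counted once. RefSeq windows were matched for 33 of the 38 members; Actg2, Myh11, Tagln, Myocd and Nexn had none. An exact box was in 2 of the 33 (6.06%), against 488 of 27025 genes (1.81%), and a box with at most 1 letter off in 14 of the 33 (42.4%), against 6419 of 27025 genes (23.8%). These are matches of letters within 300 bases, with no test and no measure of binding.

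The members varied together across the libraries. Over 703 pairs of members, the median Pearson correlation of log2 CPM across the 10 libraries was 0.90, with a range from -0.18 to 1.00. Of the 38, 31 had a correlation above 0.9 with the mean of the other 37, the highest being Pgm5 at 0.99. Srf had the lowest at 0.07 and Kcnma1 the next at 0.79. All points share the same libraries and both groups, so these values describe a shared pattern and carry no p.

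Because the members varied together from library to library, their levels were also set against Myh11, the myosin of this cell type, which gives a content per unit of muscle myosin. This choice was made after the values were seen. Of the other 37 members, 3 had a ratio to Myh11, taken on log2 CPM, that was higher in every 4-HDHA colon, colon 5 included, than in every PBS colon. That was so for 0.0714% of all genes, but few of those share the library pattern of the members: outside the set, 262 of 15448 genes had a correlation above 0.9 with the mean of the members. Synpo2 stood at 9.88, 7.69, 8.34, 8.01 and 6.67% of the Myh11 FPKM in 4-HDHA colons 1 to 5, against 4.07, 5.25, 6.47, 5.29 and 4.52% in PBS colons 1 to 5. For Synpo2, 4-HDHA colon 5 was only narrowly above PBS colon 3. Pdlim3 stood at 16.1, 12.03, 11.7, 14.5 and 14.2% in 4-HDHA colons 1 to 5, against 9.35, 10.4, 10.8, 9.49 and 9.62% in PBS colons 1 to 5. Pln stood at 1.21, 1.53, 1.35, 1.45 and 1.19% in 4-HDHA colons 1 to 5, against 0.367, 1.19, 0.303, 0.795 and 0.706% in PBS colons 1 to 5. It separated on log2 CPM only by a narrow margin that rests on few counts. There 4-HDHA colon 5 had 65 counts of Pln and 14912 of Myh11, against 311 and 71819 in PBS colon 2. In FPKM the ratio was 1.18588% in 4-HDHA colon 5 and 1.18607% in PBS colon 2, so the groups overlapped by a very small margin. Tagln, by contrast, overlapped, at 372, 298, 269, 315 and 370.3% in 4-HDHA colons 1 to 5, against 325, 307, 258, 299 and 368% in PBS colons 1 to 5.

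With the Myh11 level as a covariate over all 10 libraries, the median log2 fold change of the other 37 members was 0.21 and 32 of them were positive; that of Myh11 is set near 0 by the fit. The adjusted test of edgeR called 0 of them. At an unadjusted edgeR p under 0.05, 6 were higher, where 5.14% of all genes were. These 6 were Chrm3 (1.04 ± 0.35 SE), Pln (0.80 ± 0.30), Synpo2 (0.66 ± 0.17), Pdlim3 (0.49 ± 0.12), Lmod1 (0.43 ± 0.19) and Smtn (0.33 ± 0.14). Acta2 (0.09 ± 0.15), Tagln (0.06 ± 0.16) and Actg2 (-0.04 ± 0.32) were within their errors of 0 in that fit.

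**Figure D4:**
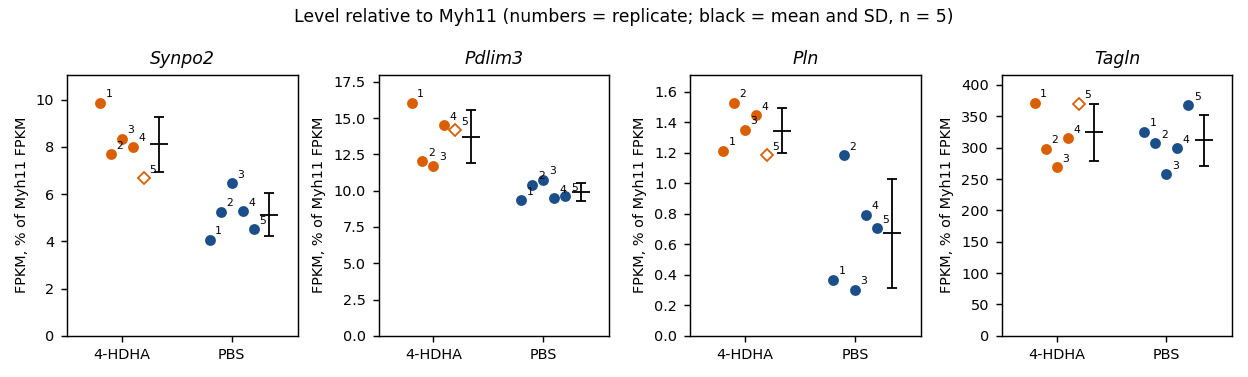
FPKM of Synpo2, Pdlim3, Pln and Tagln as a percentage of the Myh11 FPKM of the same library, with 4-HDHA left of PBS, replicate numbers beside the points, 4-HDHA colon 5 as an open diamond, and the mean and SD of the 5 colons of each group in black. All 5 points of 4-HDHA lie above all 5 of PBS for Synpo2 and Pdlim3. For Synpo2 the gap is narrow, between 6.67% in 4-HDHA colon 5 and 6.47% in PBS colon 3. The points of Pln overlap by a very small margin, and those of Tagln overlap. On log2 CPM, 0.0714% of all genes had a ratio that was higher in every 4-HDHA colon than in every PBS colon.

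Other genes of the contraction pathway were read in the same edgeR fit, and none of the genes in the lists below passed the adjusted test. The dystrophin complex and costamere, which tie the cytoskeleton through the membrane to the matrix, had 21 of 22 genes positive, a median log2 fold change of 0.47 and 8 higher at an unadjusted p under 0.05 (14 without colon 5, where DESeq2 called 11). Over all genes tested, the shares were 7.39% at that p, and without colon 5 they were 10.7% at that p and 4.3% with DESeq2. Cav1 averaged 180.0 ± 82.4 CPM with 4-HDHA and 69.5 ± 31.4 CPM with PBS (SD, n = 5 each), Itga7 averaged 39.4 ± 14.1 CPM with 4-HDHA and 23.6 ± 7.24 CPM with PBS, and Tns1 averaged 275 ± 125 CPM with 4-HDHA and 132 ± 52.1 CPM with PBS; their log2 fold changes were 1.37, 0.74 and 1.06. They encode the coat protein of caveolae, a laminin receptor of muscle and a linker of integrins to actin. Of calcium and cyclic nucleotide signalling, 14 of 17 genes were positive, by a median of 0.53, with 6 higher and 1 lower at that p. Without colon 5, 10 were higher and 1 lower, and DESeq2 called 8 as higher. The 1 lower gene was Atp2a2, a pump of the calcium store (log2 fold change -0.31, and -0.34 without colon 5). The smallest p were those of the store channel Itpr1 (log2 fold change 0.64), the potassium channel Kcnq5 (0.93) and the sodium-calcium exchanger Slc8a1 (0.56). Among other receptors for contraction or relaxation, 10 of 13 were positive, by a median of 0.45, with 4 higher at that p (4 without colon 5, where DESeq2 called 4). They were led by Adrb3, a relaxing adrenergic receptor (1.34), the prostaglandin receptor Ptger3 (0.72) and the tachykinin receptor Tacr2 (1.16).

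Of the cofactors of serum response factor and other transcription factors, 12 of 17 were positive, with a median fold change of 0.05 on the log2 scale and 2 higher at an unadjusted edgeR p under 0.05 (2 without colon 5, where DESeq2 called 1). With 17 genes, these counts are close to the shares of all genes given above. The smallest p were those of Mef2c (log2 fold change 1.42), a factor of muscle, vessels and B cells, the LIM protein Fhl1 (1.06) and the ternary complex factor Elk3 (0.53). Mef2c was highest in 4-HDHA colon 5, the colon rich in B cell transcripts, at 25.0 CPM, against 8.21 to 16.2 CPM in the other 4-HDHA colons and 2.60 to 9.02 CPM in PBS colons, and its log2 fold change was 1.09 without that colon.

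Markers of other cells moved with the groups or with colon 5 to differing degrees, and their part in the muscle results was not tested. No marker was at 0 in all libraries. Of all genes tested, 51% were positive and 7.39% higher at an unadjusted edgeR p under 0.05 (50.4% and 10.7% without colon 5). Adipocyte markers, 5 of 5 tested higher with 4-HDHA, had a median fold change on the log2 scale of 3.31 (3.46 without colon 5), with 4 at an unadjusted edgeR p under 0.05, and summed to 23.5 to 146 CPM in 4-HDHA colons (30.3 in colon 5) and 4.93 to 15.7 CPM in PBS colons, so they separated the groups with colon 5 included. Fibroblast markers were higher in 9 of 9 by a median of 0.91, with 6 at that p with or without colon 5, and summed to 1182 to 4298 CPM in 4-HDHA colons (1182 in colon 5) and 721 to 1415 CPM in PBS colons. Skeletal muscle markers were higher in 11 of 11 by a median of 0.77, with 0 at that p, and summed to 40.9 to 123 CPM in 4-HDHA colons (88.4 in colon 5) and 8.08 to 78.9 CPM in PBS colons. Cardiac muscle markers, 2 of 4 tested higher, summed to 10.2 to 37.2 CPM in 4-HDHA colons (10.2 in colon 5) and 4.48 to 20.5 CPM in PBS colons. Enteric neuron and glia markers, 11 of 14 higher with 2 at that p (12 with 6 without colon 5), summed to 49.6 to 192 CPM in 4-HDHA colons (49.6 in colon 5) and 59.0 to 155 CPM in PBS colons. Pericyte and mural cell markers, 6 of 8 tested higher with 1 at that p (7 with 3 without colon 5), summed to 131 to 413 CPM in 4-HDHA colons (131 in colon 5) and 115 to 305 CPM in PBS colons. With 14 neuron and glia genes and 8 pericyte genes tested, the counts of 2 and 1 over all libraries are close to the share of all genes. Markers of interstitial cells of Cajal, the pacemaker cells, were higher in 5 of 5 (3 of 5 without colon 5), with 0 at that p, and summed to 162 to 299.7 CPM in 4-HDHA colons (299.7 in colon 5) and 73.1 to 277 CPM in PBS colons. In colon 5 that sum came mostly from Ano1 (258 CPM), which other cells also express. Kit (15.8 CPM, against 27.2 to 40.3 in the other 4-HDHA colons) and Etv1 (4.61 CPM, against 8.78 to 16.9) were the lowest of the group there. Prkcq (6.82 CPM, against 2.03 to 4.91) was the highest of the group there, and Gpr20 (14.7 CPM, against 9.47 to 14.8) was near the highest. Immune markers, 6 of 7 higher, summed to 78.3 to 455 CPM in 4-HDHA colons (455 in colon 5) and 74.4 to 299.6 CPM in PBS colons, and 2 of 7 were higher without colon 5. Epithelial markers, 4 of 10 higher by a median of -0.05, summed to 12492 to 19657 CPM in 4-HDHA colons (18742 in colon 5) and 11667 to 20016 CPM in PBS colons. Mesothelial markers, 3 of 4 higher, summed to 1.34 to 10.3 CPM in 4-HDHA colons (1.34 in colon 5) and 0.794 to 16.5 CPM in PBS colons.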

How the data were processed

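RNA of 10 mouse colon libraries, 5 with 4-HDHA and 5 with PBS, was analysed, with groups and replicate numbers taken from the labels. Strand-marked (dUTP) libraries of poly(A) RNA were sequenced in paired ends, per the labels' protocols. StringTie 1.3.4d, HISAT2 2.0.4, cutadapt 1.9, DESeq2, edgeR and the build mm10 appear in the submitters' processing notes, without their settings. For 55401 genes the authors deposited raw counts, whole and not normalized, and for 32132 of them also FPKM, which scales by gene length and library size. The counts in both differed in 0 cells. Gene positions are those of the deposited table.

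The main test was that of edgeR 4.0.16 (R 4.3.3), with TMM scaling, filterByExpr, a robust quasi-likelihood F test over all genes tested, and Benjamini-Hochberg adjustment at 0.05. CPM uses the TMM factors, and log2 CPM a prior count of 2. The SE of a fold change is implied by the F test. Alternatives were DESeq2 1.42.0, limma 3.58.1 (voom with quality weights, and trend on log2 FPKM plus 1 or 0.1, which understates changes of low genes), different scalings, different filters, a replicate block, each library left out, and, chosen after seeing the data, Myh11 as a covariate and the removal of each library beside 4-HDHA replicate 5. Depth was 50915365 to 66470519 counts per library, and counting error is small beside the spread between colons except for the lowest genes.

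The members and lists were chosen with earlier results of these data known. Values in every library are given for the 10 members with the smallest edgeR p and for Acta2, Actg2, Myh11, Tagln, Des, Myocd, Srf, Kcnma1, Cacna1c, Pln, Chrm2 and Chrm3, and the 3 smallest p for each pathway list. The results of 1 pathway list are not reported here. Irag1 had no row under that name and was not used. Promoter windows are from RefSeq on GRCm38.p6, and shared 150-base stretches and exon overlaps from GENCODE M21.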

Additional observations from a re-analysis of the deposited data

Results flagged for a closer look

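Within each group of 5 colons, the gap between the extreme colon and its nearest neighbour was divided by the range of the group, on log2 CPM, and set against Dixon's critical value of 0.71. Chance alone passes it in about 1 of 20 groups, and 76 groups (38 members in 2 treatments) were examined. In 16 of the 17 that passed, the outlying colon was 4-HDHA colon 5, on the low side. The ratios were Tagln (0.763), Lmod1 (0.733), Myh11 (0.841), Myl9 (0.724), Ppp1r12b (0.844), Des (0.720), Synm (0.793) and Synpo2 (0.881) among the filament, myosin and dense body genes. They were Flna (0.793), Pgm5 (0.807), Pdlim3 (0.787), Nexn (0.794), Hspb6 (0.903), Casq2 (0.726), Jph2 (0.760) and Pln (0.793) among the remaining dense body genes, Hspb6 and the calcium store genes. The members share that library, so these are not separate events. The ratio was taken for the members only, so how often 4-HDHA colon 5 stands out over all genes was not measured. The other was Hspb8 in PBS colon 4, also low (0.767), at 14.4 CPM where the rest of the PBS colons held 27.1 to 32.9 CPM.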

How the results depend on the processing

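Over all libraries, 0 genes and 0 members passed with edgeR. The count was 307 genes and 1 member with DESeq2, 1183 genes and 19 members with DESeq2 without 4-HDHA replicate 5, and 360 genes and 13 members with voom in the same 9 libraries. When single libraries, or single libraries beside 4-HDHA replicate 5, were left out, edgeR called between 0 and 15 genes and between 0 and 1 member. The 15 genes and the 1 member, Ppp1r12b, came without PBS replicate 2 and 4-HDHA replicate 5. The cause of these differences between methods was not tested. At an unadjusted edgeR p under 0.05 the members numbered from 2 (without 4-HDHA replicate 4) to 35 (without 4-HDHA replicate 5), with 20 without PBS replicate 2, 3 without PBS replicate 4, 4 without PBS replicate 1, 5 without PBS replicate 3, 5 without 4-HDHA replicate 1 and 6 without 4-HDHA replicate 2. With voom over all libraries there were 32, and with limma on log2 FPKM 8 or 7. Of all genes, edgeR had 7.39% higher at that p over all libraries and 10.7% without 4-HDHA replicate 5. For the other counts just given that share was not computed, so they are not set against it. The median fold change of the members stayed between 0.69 and 1.08 with each library left out, and with Myh11 as a covariate it was 0.21.

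The replicate block gave 0 members past the adjusted threshold, a median of 0.84, 37 positive members, and 2 members at an unadjusted p under 0.05. The share of all genes at that p was not computed with the block. Same-numbered colons did not deviate together (correlations from -0.32 to 0.08). Low correlations cannot exclude pairing, since a shared effect may be small beside the spread between colons. Whether the numbers pair the colons is not stated.

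Of the fold changes of single members under the alternatives, 1131 kept their direction and their side of the threshold. As 0 genes passed in the main fit and in most alternatives, keeping that side says little. Another 34 passed the threshold where the main value did not, and 12 changed sign. With Myh11 as a covariate these were Actg2 (-0.041), Lpp (-0.0062), Hspb6 (-0.051) and Kcnmb1 (-0.058). The rest were Srf, at 0.0031 with voom over all libraries and 0.0038 with voom without 4-HDHA replicate 5, and from -0.107 to 0.0937 with libraries left out: 0.052 without 4-HDHA replicate 3, 0.0029 without PBS replicate 1, 0.0027 without PBS replicate 5, and, beside 4-HDHA replicate 5, 0.094 without 4-HDHA replicate 3, 0.024 without PBS replicate 1 and 0.020 without PBS replicate 5. The cause was not tested. Pln, with 0.233 CPM in PBS colon 3, had the widest SE (0.73).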

Other observations

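Among 15448 genes outside the set with a mean of at least 1 CPM, 262 had a Pearson correlation above 0.9 with the mean z score of the members across the 10 libraries, which share groups and tissue. The closest were Tspan2 (0.993), Pnck (0.992), Stum (0.990), Atp2b4 (0.989), Tns1 (0.988), Popdc2 (0.988), Lims2 (0.988), Ctxn1 (0.988), Tmem252 (0.987) and Gm11946 (0.987). They include a tetraspanin (Tspan2), a calmodulin-regulated kinase (Pnck), a calcium pump of the surface membrane (Atp2b4), and adhesion and cyclic AMP-binding proteins (Tns1, Lims2, Popdc2). Tspan2 averaged 21.8 CPM in 4-HDHA colons and 11.1 CPM in PBS colons, and Atp2b4 averaged 101.4 CPM in 4-HDHA colons and 53.7 CPM in PBS colons. Gm11946 lies opposite Smtn, a member, and overlaps its exons.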
